A study of Mus musculus with 15 samples.

Results

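The 139 genes described here are those whose transcript level fell at 2 h of interferon beta in 3 settings of cultured MEFs, the connective tissue cells (fibroblasts) of mouse embryos. They were selected on the values themselves. A gene was kept if its mean at 0 h was at least 2 CPM (counts scaled to library size) and its mean at 2 h was at most 0.65 of that, in each of KO pretreated, WT pretreated and WT naive cells. Of 24015 listed genes, 10535 reached the floor in all 3 settings, and 139 met the limit in all 3. All 139 also passed the filter on low counts that left 13829 genes for testing. CPM here were counted over all genes other than the ribosomal transcript Rn45s and Lars2. The fourth setting, KO naive, took no part in the choice.

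All cells carried the strain label c57bl/6 and were labelled NSD2 KO or WT, and WT was described as Nsd2(+/+). The NSD2 enzyme methylates histone H3 at lysine 36, and its gene is listed as Whsc1. Pretreated cells had received interferon beta for 3 h, had been washed, and had then gone 24 h without it, and naive cells had not. Each kind was taken at 2 h of interferon beta (100 units/ml) and at 0 h, giving 8 groups: KO pretreated 2 h, KO pretreated 0 h, KO naive 2 h, KO naive 0 h, WT pretreated 2 h, WT pretreated 0 h, WT naive 2 h and WT naive 0 h. KO naive 2 h had 1 library and every other group 2. No group with 2 h of mock handling is among the labels, so interferon and 2 h of handling cannot be told apart in any value at 2 h. The labels give neither the number of embryos nor the number of clones behind each genotype, so a difference between KO and WT is one between these cells.

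Interferon beta binds a surface receptor whose kinases activate STAT transcription factors, and these switch on antiviral genes. The genes below are of another kind. Several answer to stress or nutrient shortage through the transcription factor ATF4, which is translated more when general protein synthesis is held back. Others belong to the FOXO and p53 programs that restrain growth, to the Hedgehog pathway, which patterns the embryo, or to the circadian clock. Many further ones encode zinc finger proteins that bind DNA. In bulk RNA, fewer cells of a type and less RNA per cell cannot be told apart.

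Gene counts per library ran between 17170845 and 44116418 (median 28585502) over 15 libraries. Rn45s and Lars2 took 10.6% to 29.4% of these, and 3 libraries lay lowest (KO pretreated 0 h replicate 2, WT pretreated 2 h replicate 1 and WT naive 0 h replicate 1). Whsc1 was still counted at 129.2 to 153 CPM in KO and at 145 to 199 CPM in WT libraries. Where a deletion removes only a stretch of a gene, such a count says nothing of it. All 13 fibroblast markers were present, with a summed level of 16149 to 22967 CPM. Of 11 listed macrophage and blood markers, Ptprc, Emr1, Tyrobp, Hbb-b1 and Hba-a1 were at or near 0. In the same list, 4 markers exceeded 1 CPM in at least 1 group. That list summed to 7.52 to 12.03 CPM in KO and to 18.41 to 26.0 CPM in WT libraries.

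Added together, the 139 genes took a smaller share of the counts at 2 h than at 0 h in every setting, the one left out of the choice included. They made up 0.174% and 0.173% of counts in KO pretreated libraries at 2 h against 0.349% and 0.346% at 0 h. In KO naive cells they made up 0.218% in the single library at 2 h, against 0.447% and 0.436% at 0 h. WT pretreated libraries gave 0.137% and 0.138% at 2 h against 0.258% and 0.257% at 0 h, and WT naive libraries 0.157% and 0.153% at 2 h against 0.324% and 0.316% at 0 h. No library at 2 h reached the lowest library at 0 h of any group. At 0 h the share was highest in KO naive and lowest in WT pretreated libraries.

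**Figure D1:**
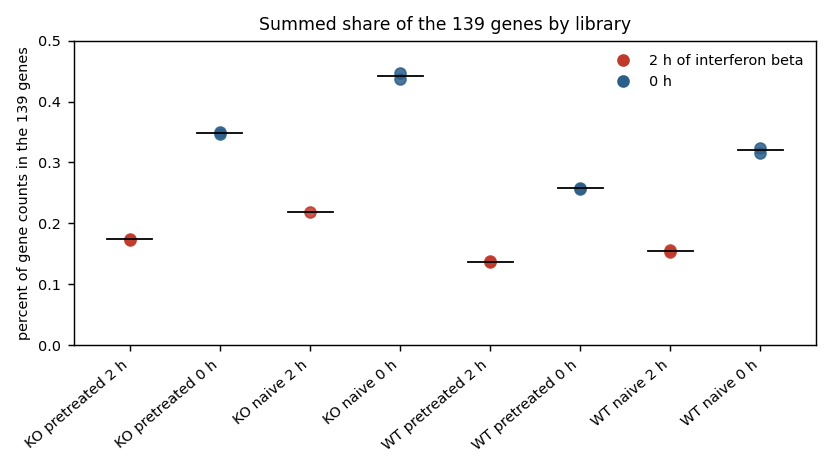
Percent of gene counts, without Rn45s and Lars2, that fell in the 139 genes, for each of the 15 libraries (points) with the group mean (line; KO naive 2 h is 1 library). The 7 libraries at 2 h (red) lie between 0.137% and 0.218%, below the 8 libraries at 0 h (blue), which lie between 0.257% and 0.447%; 3 of the 4 settings chose the genes.

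The median ratio of the mean at 2 h to the mean at 0 h was 0.515 in KO pretreated, 0.532 in WT pretreated and 0.504 in WT naive cells, the 3 settings of the choice. The lowest ratios there were 0.261, 0.133 and 0.134. For all 139 genes both 2 h libraries lay below both 0 h libraries in each of these 3 settings. The same held for 63.2% of genes at the floor in KO pretreated, 49.5% in WT pretreated and 52.6% in WT naive cells. Such a separation in these settings, also for single genes below, describes the choice. Just inside the limit of 0.65, by the largest of the 3 ratios, lay Camkk1, Prob1, Slc25a27, Zfp775 and Cxcl12 (0.647 to 0.649), and just outside lay Ddx26b, Zfp239, Mbd4, Slc1a4 and Patz1 (0.6503 to 0.653). Values lay close to the limit on both sides of it.

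KO naive cells, whose libraries did not enter the choice, gave a test of the same fall. The median ratio there was 0.497, with a range of 0.243 to 0.972. All 139 ratios were below 1, as were 68.5% of the 10535 genes at the floor. The median at the floor was 0.917, a shift of -0.12 on the log2 scale that the scaling of the fit takes out. Below that median lay 135 of the 139 genes. Of the 139 genes, 111 (79.9%) were at or under 0.65, as were 7.03% of the other genes at the floor. The 2 h library lay below both 0 h libraries for 135 genes (97.1%), against 62.8% of all genes at the floor. In edgeR's quasi-likelihood test over all 13829 tested genes, 115 of the 139 genes (82.7%) were called lower at an adjusted p below 0.05, where 16.2% of tested genes were called lower. By the same test 0 were called higher, against 20.2% of tested genes, and 0 were higher at an unadjusted p below 0.05 or by DESeq2. A total of 53 genes were lower by at least 2-fold. The median fitted log2 change of the 139 genes was -0.86 and that of all tested genes was 0. Fitted log2 changes below are given ± SE. Fibroblast markers summed to 16149 CPM in the KO naive library at 2 h against 18272 and 18896 CPM at 0 h. Skeletal muscle markers summed to 13.8 CPM there against 5.02 and 5.29 CPM at 0 h, and epithelium markers to 7.16 CPM against 3.34 and 4.23 CPM, with Myod1, Myog, Myh3, Ckm, Epcam and Krt5 at or near 0. Muscle markers were likewise 10.3 and 10.7 CPM in KO pretreated cells at 2 h against 5.48 and 5.75 CPM at 0 h, and cartilage and bone markers 94.3 and 97.6 CPM in WT naive cells at 2 h against 50.7 and 51.3 CPM at 0 h. The part of these markers in the results was not tested. The test rests on a single library at 2 h, whose spread the fit takes from the other groups.

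**Figure D2:**
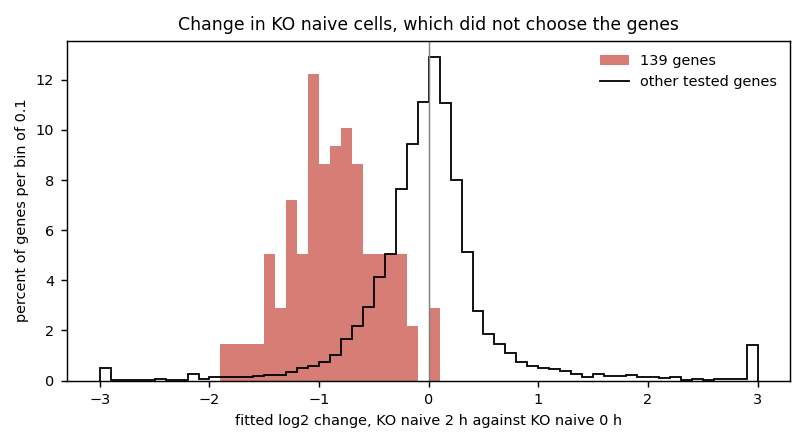
Fitted log2 change in KO naive cells at 2 h against 0 h (x axis) and the percent of genes in each bin of 0.1 (y axis), for the 139 genes (red) and the other tested genes (black line); the outermost bins also hold values beyond -3 and 3. The 139 genes center on -0.86 and range from -1.89 to 0.09, while all tested genes center on 0.

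The list of ATF4 and endoplasmic reticulum (ER) stress genes had 7 of its 22 tested genes among the 139: Trib3, Ddit3, Ddit4, Chac1, Sesn2, Herpud1 and Vldlr. All 7 were called lower in KO naive cells. Trib3 encodes a pseudokinase that ATF4 and CHOP induce. In KO libraries, Trib3 held 33.3 and 26.5 CPM at 2 h against 64.99 and 68.8 CPM at 0 h after pretreatment, and 37.6 CPM at 2 h against 111 and 105 CPM at 0 h in naive cells. In WT libraries, Trib3 held 28.0 and 24.7 CPM at 2 h against 56.6 and 61.0 CPM at 0 h after pretreatment, and 30.3 and 28.8 CPM at 2 h against 103 and 89.3 CPM at 0 h in naive cells. Every library at 2 h lay below every library at 0 h, and naive cells held more than pretreated cells at 0 h in both genotypes. Its log2 change in KO naive cells was -1.38 ± 0.099 (edgeR adjusted p = 2e-12). Sesn2 encodes a sestrin, which restrains the growth kinase complex mTORC1 when leucine is short. In KO libraries, Sesn2 held 17.5 and 17.1 CPM at 2 h against 40.5 and 41.6 CPM at 0 h after pretreatment, and 15.1 CPM at 2 h against 51.5 and 53.2 CPM at 0 h in naive cells. In WT libraries, Sesn2 held 15.6 and 18.2 CPM at 2 h against 44.3 and 44.4 CPM at 0 h after pretreatment, and 19.1 and 20.2 CPM at 2 h against 62.5 and 63.1 CPM at 0 h in naive cells. Its libraries at 2 h lay close together in all 4 settings and far below those at 0 h. The log2 change in KO naive cells was -1.66 ± 0.095 (edgeR adjusted p = 7.8e-15).

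Ddit4, also called REDD1, is another restraint on mTORC1 and differed by genotype as well as by time. In KO libraries, Ddit4 held 13.9 and 14.5 CPM at 2 h against 32.6 and 28.1 CPM at 0 h after pretreatment, and 23.1 CPM at 2 h against 54.0 and 51.3 CPM at 0 h in naive cells. In WT libraries, Ddit4 held 43.1 and 42.7 CPM at 2 h against 83.9 and 84.6 CPM at 0 h after pretreatment, and 60.01 and 57.7 CPM at 2 h against 144 and 134 CPM at 0 h in naive cells. At each time and pretreatment the KO libraries lay below the WT libraries, and KO naive cells at 0 h held less than WT naive cells at 2 h. It fell in KO naive cells at 2 h by 1.04 on the log2 scale. Chac1 encodes an enzyme that degrades glutathione. In KO libraries, Chac1 held 18.8 and 16.0 CPM at 2 h against 40.2 and 39.9 CPM at 0 h after pretreatment, and 21.1 CPM at 2 h against 47.3 and 49.0 CPM at 0 h in naive cells. In WT libraries, Chac1 held 20.8 and 19.2 CPM at 2 h against 37.9 and 36.5 CPM at 0 h after pretreatment, and 20.3 and 19.96 CPM at 2 h against 52.0 and 46.0 CPM at 0 h in naive cells. Every library at 2 h lay below every library at 0 h, whichever the genotype. Ddit3, which encodes the transcription factor CHOP, fell by 0.76 and Herpud1, a part of ER-associated degradation, by 0.66 in KO naive cells. Vldlr, a receptor for lipoproteins and reelin, fell by 0.44. The ratios of these 3 genes over the 4 settings ran from 0.510 to 0.666. The span of Ddit3 overlaps other genes in RefSeq, as does that of Vldlr, so their counts are uncertain without a stated strand setting.

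The other 15 genes of this list did not move as one. Of these, 5 were called lower in KO naive cells, among them Atf4 itself at -0.38 and Atf5 at -0.55 on the log2 scale. Called higher were Atf3, a stress-induced relative of ATF4, at 1.40 and the ER chaperone Hspa5 at 0.32. The Atf3 mean was higher at 2 h in every setting, though only at 10.0 against 9.45 CPM in WT pretreated cells. That of Hspa5 was higher in both WT settings but not in KO pretreated cells (846 against 850 CPM). The amino acid enzymes Asns, Psat1, Phgdh and Mthfd2, which ATF4 also induces, had log2 changes between -0.081 and 0.073 and passed no test. Sesn2 also stands in the list of p53 targets, as do Sesn1 and Trp53inp1 of the FOXO list, and each is counted in every list that holds it.

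Promoters are shown for 4 of these genes because their upstream stretch holds CCAAT, the word bound by the factor NF-Y and a component of ER stress elements. Each runs 5′ to 3′ on the gene's strand over the 160 bases before the annotated start (RefSeq, GRCm38.p6), with CCAAT or its reverse complement ATTGG in capitals. The counts were made on another build, so no position is carried between them.
Chac1, chr2:119351082-119351241 (plus strand): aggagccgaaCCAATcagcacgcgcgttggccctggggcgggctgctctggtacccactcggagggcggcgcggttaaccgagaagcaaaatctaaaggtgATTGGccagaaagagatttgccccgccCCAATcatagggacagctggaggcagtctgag
Ddit3, chr10:127290633-127290792 (plus strand): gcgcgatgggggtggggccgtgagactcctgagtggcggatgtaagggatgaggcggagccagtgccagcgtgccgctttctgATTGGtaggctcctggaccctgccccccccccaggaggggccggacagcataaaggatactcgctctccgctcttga
Herpud1, chr8:94386269-94386428 (plus strand): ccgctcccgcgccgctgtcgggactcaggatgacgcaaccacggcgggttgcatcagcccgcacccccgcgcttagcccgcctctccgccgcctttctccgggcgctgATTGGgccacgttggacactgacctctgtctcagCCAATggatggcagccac
Sesn2, chr4:132510457-132510616 (minus strand): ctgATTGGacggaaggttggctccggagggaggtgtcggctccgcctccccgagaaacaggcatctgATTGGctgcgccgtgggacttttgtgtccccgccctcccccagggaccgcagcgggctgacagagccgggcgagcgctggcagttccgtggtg
These windows hold 3 words for Chac1, 1 for Ddit3, 2 for Herpud1 and 2 for Sesn2. CCAAT on either strand stood in 39.1% of the promoters of tested genes over 300 bases around the start, and the promoters of Trib3 and Vldlr held none. That of Ddit4 held 2 and is not shown, since 1 of them lies upstream of this window. RefSeq promoters were at hand for 108 of the 139 genes (77.7%), under the 80% at which a share among them would be compared with that of other genes, so that comparison is void.

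The FOXO list, of genes that growth factors hold down through the kinase AKT, had 5 of its 25 tested genes among the 139. These were Ccng2 (cyclin G2), Sesn1 (a sestrin), Arrdc4 (an alpha-arrestin), Trp53inp1 (a p53-induced protein linked to autophagy) and Gadd45a (a growth arrest and DNA damage protein). In KO libraries, Trp53inp1 held 81.4 and 87.8 CPM at 2 h against 146 and 141 CPM at 0 h after pretreatment, and 136 CPM at 2 h against 247 and 234 CPM at 0 h in naive cells. In WT libraries, Trp53inp1 held 36.9 and 46.4 CPM at 2 h against 104 and 111 CPM at 0 h after pretreatment, and 65.9 and 63.6 CPM at 2 h against 201 and 220.0 CPM at 0 h in naive cells. Every setting separated 2 h from 0 h, and KO libraries lay above WT libraries of the same condition. The log2 change of Trp53inp1 in KO naive cells was -0.67 ± 0.077 (edgeR adjusted p = 3.5e-08). There Ccng2 fell by 0.63, Sesn1 by 0.84 and Gadd45a by 0.63. Arrdc4 gave -0.36 ± 0.28, which did not pass the test (edgeR adjusted p = 0.34). Of the 20 other FOXO genes, 9 were called lower in KO naive cells, such as Irs2 at -0.60 and Bcl6 at -0.41. Another 4 were called higher, among them Arrdc3, a relative of Arrdc4, at 1.04 and Cited2 at 0.72. The Irs2 mean was also lower at 2 h in both pretreated settings but higher in WT naive cells (45.3 against 42.2 CPM). Bcl6 was also lower in WT naive cells but higher in KO pretreated (11.7 against 10.6 CPM) and WT pretreated cells (9.66 against 8.80 CPM). In KO pretreated cells the Arrdc3 mean was lower at 2 h, at 32.8 against 40.3 CPM at 0 h. It was also lower in WT naive (23.1 against 39.9 CPM) and WT pretreated cells (26.7 against 37.0 CPM). The Cited2 mean was higher at 2 h in every setting. Among 20 p53 targets, 3 were members, 7 were called lower and 6 higher, and the founding target Cdkn1a gave -0.39 while Fas gave 2.23. In WT naive cells the Fas mean was lower at 2 h than at 0 h, at 7.91 against 9.28 CPM. It was higher at 2 h in KO pretreated (13.9 against 4.58 CPM) and WT pretreated cells (6.28 against 6.01 CPM).

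Of 9 Hedgehog genes tested, Gli1, Ptch1 and Gas1 were among the 139. Gas1 is a co-receptor for Hedgehog ligands and had one of the lowest ratios of all. In KO libraries, Gas1 held 27.0 and 27.6 CPM at 2 h against 105 and 103 CPM at 0 h after pretreatment, and 65.4 CPM at 2 h against 200.4 and 195 CPM at 0 h in naive cells. In WT libraries, Gas1 held 14.8 and 18.0 CPM at 2 h against 42.6 and 45.3 CPM at 0 h after pretreatment, and 20.1 and 23.1 CPM at 2 h against 63.8 and 60.6 CPM at 0 h in naive cells. The ranges at 2 h and 0 h did not meet within any setting, but the KO naive library at 2 h held slightly more than both WT naive libraries at 0 h. The KO naive log2 change was -1.45 ± 0.076 (edgeR adjusted p = 8e-16). Gli1 encodes the transcription factor that is both an effector and a target of the pathway. In KO libraries, Gli1 held 5.21 and 4.43 CPM at 2 h against 9.49 and 9.20 CPM at 0 h after pretreatment, and 6.29 CPM at 2 h against 14.2 and 12.5 CPM at 0 h in naive cells. In WT libraries, Gli1 held 2.56 and 2.41 CPM at 2 h against 5.80 and 3.75 CPM at 0 h after pretreatment, and 1.86 and 1.77 CPM at 2 h against 4.54 and 3.84 CPM at 0 h in naive cells. KO libraries were above WT libraries at each time and pretreatment. In KO naive cells Gli1 fell by 0.93 and Ptch1, the receptor that Hedgehog signaling itself induces, by 0.60 on the log2 scale. The span of Gli1 overlaps another gene. Outside the 139 genes, Gli2 (-1.38), Cdon (-0.66) and Gli3 (-0.26) were also called lower in KO naive cells, while Smo and Boc passed no test and none of the 9 was called higher. Gli2 was near 0 in WT cells, with group means of at most 0.0742 CPM, so no fall could be seen there. In KO pretreated cells its mean was 4.31 CPM at 2 h against 5.83 CPM at 0 h.

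From the circadian clock, Dbp, Cry2 and Ciart were members, 3 of 17 genes tested. Dbp encodes a basic leucine zipper factor that the clock drives directly, while Cry2 and Ciart encode repressors of the clock. In KO libraries, Dbp held 3.44 and 3.79 CPM at 2 h against 10.3 and 9.46 CPM at 0 h after pretreatment, and 4.93 CPM at 2 h against 20.3 and 20.1 CPM at 0 h in naive cells. In WT libraries, Dbp held 2.152 and 2.03 CPM at 2 h against 3.96 and 4.10 CPM at 0 h after pretreatment, and 2.16 and 2.53 CPM at 2 h against 5.81 and 5.09 CPM at 0 h in naive cells. The libraries at 2 h and 0 h were apart in each setting, and the KO naive libraries at 0 h were the highest. In KO naive cells Dbp and Bmf had the lowest log2 changes of the 139 genes, with Dbp at -1.89 ± 0.15 (edgeR adjusted p = 1.7e-11). Ciart fell by 1.22 and Cry2 by 0.82. All 3 have spans that overlap other genes. Of the other 14 clock genes, Per1 (-0.74), Per3 (-0.99), Tef (-0.76) and Bhlhe41 (-0.43) were called lower in KO naive cells, and Bhlhe40 (0.39) and Nfil3 (0.56) higher. The Per1 mean was higher at 2 h in WT naive (11.02 against 8.76 CPM) and WT pretreated cells (7.97 against 7.22 CPM). It was lower in KO pretreated cells (5.93 against 7.37 CPM). The means of Per3, Tef and Bhlhe41 were lower at 2 h in every setting. That of Nfil3 was higher in every setting, and that of Bhlhe40 in all but KO pretreated cells (92.2 against 94.4 CPM). The core activators Arntl and Clock gave 0.13 and 0.033 in KO naive cells and passed no test there. The Arntl mean was higher at 2 h in WT naive (83.02 against 50.68 CPM) and WT pretreated cells (56.57 against 47.98 CPM). In KO pretreated cells it was lower (36.07 against 42.97 CPM).

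The Ciart promoter is shown because it holds the E-box CACGTG, the word that the clock's activators bind, in 3 places (capitals). CACGTG, which reads the same on both strands, stood in 10.1% of the promoters of tested genes, and those of Dbp and Cry2 held none.
Ciart, chr3:95882229-95882388 (minus strand): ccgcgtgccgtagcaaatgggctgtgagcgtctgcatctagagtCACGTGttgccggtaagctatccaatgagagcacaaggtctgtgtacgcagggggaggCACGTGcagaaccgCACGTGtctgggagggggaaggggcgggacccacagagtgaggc

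Among secreted signals, Cxcl12 and Bmp4 were members, 2 of 15 genes tested. Cxcl12 is a chemokine that fibroblasts release and that retains blood progenitors and lymphocytes in tissues. In KO libraries, Cxcl12 held 350.1 and 368 CPM at 2 h against 705 and 695 CPM at 0 h after pretreatment, and 446 CPM at 2 h against 894 and 845 CPM at 0 h in naive cells. In WT libraries, Cxcl12 held 237 and 219 CPM at 2 h against 351 and 351 CPM at 0 h after pretreatment, and 250.4 and 250.1 CPM at 2 h against 401 and 386 CPM at 0 h in naive cells. KO libraries at 2 h overlapped in range with WT libraries at 0 h, but within each setting the times were apart. In KO naive cells the log2 change of Cxcl12 was -0.82 ± 0.055 and that of Bmp4, a ligand of the TGF-beta superfamily, was -0.93 ± 0.13 (edgeR adjusted p = 3.2e-13 and 1.1e-06). In the same list Fgf2 (1.93), Inhba (1.62) and Has2 (3.75) were called higher there. At the cell surface, Lpar2 (a receptor for lysophosphatidic acid), Ephb3 (an Eph receptor kinase) and Efna4 (an ephrin ligand) were members. They fell by 1.12, 1.51 and 1.05 on the log2 scale in KO naive cells. None of 23 growth factor and G protein-coupled receptors on a separate list was a member. In KO naive cells 5 of them, such as Pdgfra (-0.97), were called lower and 4, such as S1pr1 (1.51), higher. Pdgfra and S1pr1 moved the same way in KO pretreated cells but not in WT naive cells. There Pdgfra held a mean of 9.67 CPM at 2 h against 8.08 CPM at 0 h, and S1pr1 8.93 against 11.9 CPM. In WT pretreated cells Pdgfra held 5.98 against 7.64 CPM and S1pr1 10.8 against 10.7 CPM.

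The lowest ratios, averaged over the 3 settings of the choice, included those of Bmf, Kcnj2, Gas1, Gprin3, Fam43a, Mn1, Tet1, Shpk and Sesn2. Bmf encodes a BH3-only protein that promotes cell death. In KO libraries, Bmf held 2.68 and 2.47 CPM at 2 h against 6.42 and 7.26 CPM at 0 h after pretreatment, and 4.64 CPM at 2 h against 19.8 and 18.3 CPM at 0 h in naive cells. In WT libraries, Bmf held 0.672 and 0.481 CPM at 2 h against 4.21 and 4.49 CPM at 0 h after pretreatment, and 1.04 and 1.52 CPM at 2 h against 9.60 and 9.56 CPM at 0 h in naive cells. WT pretreated libraries at 2 h were the lowest and KO naive libraries at 0 h the highest. Its KO naive log2 change was -1.89 ± 0.16 (edgeR adjusted p = 8e-11). Kcnj2 encodes an inward-rectifier potassium channel. In KO libraries, Kcnj2 held 3.65 and 5.16 CPM at 2 h against 18.1 and 15.6 CPM at 0 h after pretreatment, and 7.01 CPM at 2 h against 15.4 and 14.2 CPM at 0 h in naive cells. In WT libraries, Kcnj2 held 15.7 and 17.5 CPM at 2 h against 54.7 and 55.8 CPM at 0 h after pretreatment, and 14.3 and 11.3 CPM at 2 h against 57.7 and 53.5 CPM at 0 h in naive cells. At 0 h both WT settings stood above all KO libraries, and WT libraries at 2 h overlapped with KO libraries at 0 h. Kcnj2 fell by 0.93 in KO naive cells. Also there, Mn1, a transcriptional coregulator, fell by 1.77, Tet1, which oxidizes 5-methylcytosine, by 1.34, and Gprin3, Fam43a and Shpk by 1.55, 1.09 and 1.26.

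**Figure D3:**
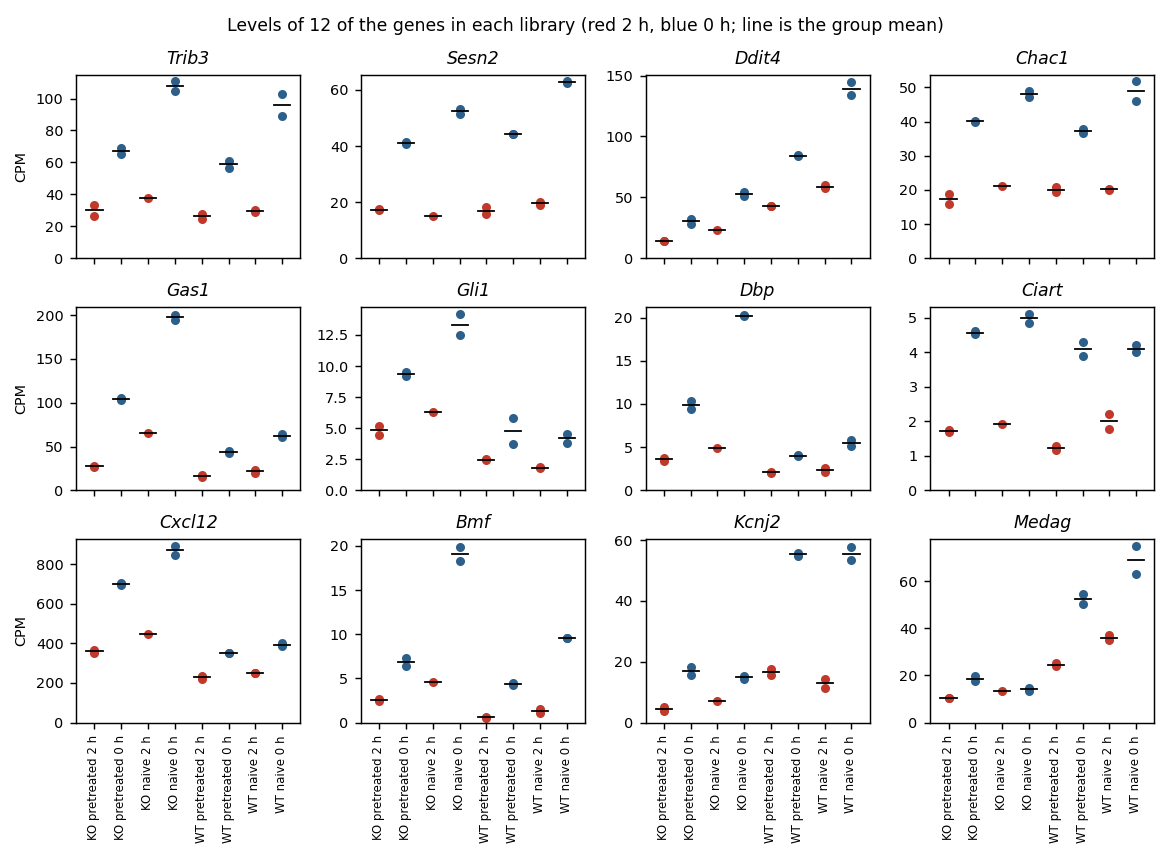
Level in CPM (y axis, from 0, with its own scale in each panel) of 12 of the 139 genes in each of the 15 libraries, by group (x axis; red 2 h, blue 0 h; line, group mean, with 1 library for KO naive 2 h). In every panel the libraries at 2 h lie below those at 0 h of the same setting, by the smallest margin for Medag in KO naive cells.

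The 139 genes held regulators of chromatin and transcription besides Mn1 and Tet1. Among them were Cbx2 (a Polycomb protein), Kat6b (a histone acetyltransferase), Rcor2 (a corepressor), Hexim2 (an inhibitor of the elongation kinase P-TEFb) and the transcription factors Meis1, Osr1, Six5, Tfap4 and Klf11. Rcor2 fell in KO naive cells by 1.49, Hexim2 by 1.02, Cbx2 by 0.92 and Kat6b by 0.91 on the log2 scale. There Tfap4 fell by 1.02, Osr1 by 0.77, Six5 by 0.68 and Meis1 by 0.60. Klf11 gave -0.25 ± 0.15 and did not pass the test (edgeR adjusted p = 0.21). It was the single member among 15 Kruppel-like factors, of which 0 were called lower in KO naive cells and 4 higher.

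Of 391 tested genes whose symbols mark C2H2 zinc finger proteins, 19 were members (4.86%, where members are 1.005% of all tested genes), which makes 13.7% of the 139 genes. They were Zfp30, Zfp40, Zfp41, Zfp60, Zfp61, Zfp174, Zfp300, Zfp354c, Zfp395, Zfp420, Zfp566, Zfp647, Zfp759, Zfp760, Zfp775, Zfp786, Zfp808, Zfp810 and Zfp956. Many such genes are near copies of each other, so that reads shared between them make their counts uncertain. Among the 19, 11 were called lower in KO naive cells, with Zfp395 lowest at -1.40 ± 0.17. Without KO naive 0 h replicate 2, Zfp40, Zfp61 and Zfp775 no longer passed (-0.43, -0.56 and -0.64), nor did Zfp566 without replicate 1 (-0.73). Zfp40 also missed the threshold in DESeq2 (-0.48, DESeq2 adjusted p = 0.13). The other 372 such genes had 80 called lower and 41 higher there, with a median log2 change of -0.11.

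The 24 genes that missed the threshold in KO naive cells included 8 of these zinc finger genes. The median level of the 24 at 0 h in KO naive cells was 5.04 CPM, against 16.9 CPM for the 115 genes called. Their median count in the 2 h library was 87.5 against 162. They also fell less there, with a median ratio of 2 h to 0 h of 0.736 against 0.466. The ratio was largest for Zfp300, Zfp759, Medag, 9530091C08Rik, Gm5113 and 2810013P06Rik. Medag, which is linked to fat cell formation, was the best counted of them. In KO libraries, Medag held 10.5 and 10.4 CPM at 2 h against 17.7 and 19.6 CPM at 0 h after pretreatment, and 13.3 CPM at 2 h against 14.5 and 13.5 CPM at 0 h in naive cells. In WT libraries, Medag held 23.8 and 25.3 CPM at 2 h against 50.3 and 54.7 CPM at 0 h after pretreatment, and 37.0 and 34.9 CPM at 2 h against 63.0 and 74.8 CPM at 0 h in naive cells. The KO naive library at 2 h lay just under both KO naive libraries at 0 h, while the other 3 settings had the times further apart. Its log2 change in KO naive cells, on the scale of the fit, where the median gene is at 0, was 0.073 ± 0.13 (edgeR adjusted p = 0.71). Whether this differs from its fall elsewhere was not tested, since the other settings chose it.

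Several lists held no member, which at a share of 1.005% of tested genes sets none of them apart. Immediate early genes, which answer serum and growth factors within minutes, had 0 of 27 tested genes among the 139, and in KO naive cells 22 were called higher and 1 lower. Targets of BMP and TGF-beta (15 genes), of Notch (9) and of Wnt (12) held no member, nor did Sox factors (9) or forkhead factors (26). In all, 40 of the 139 genes stood in at least 1 list and 99 in none. The 99 included Pgpep1, Lpin1, Ephb3, Cbx2, Rassf2 and Camkk1, and several identified only by clone symbols such as A430105I19Rik.

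Averaged over the 4 conditions, KO cells held more of 72 of the 139 genes (51.8%, against 40.6% of all tested genes) and less of 41 (29.5%, against 39% of all), with 26 called in neither direction. Among the genes called, 20 were higher and 8 lower by at least 2-fold. Of all genes at the floor, 39.9% were higher and 42.9% lower in KO. The average draws on 12 libraries that also chose the genes, and the choice bore on both WT settings but only 1 KO setting, so the split between higher and lower is a description of the chosen genes, read against no share. Nynrin had the largest difference. In KO libraries, Nynrin held 37.3 and 37.3 CPM at 2 h against 78.3 and 74.4 CPM at 0 h after pretreatment, and 40.3 CPM at 2 h against 94.4 and 92.8 CPM at 0 h in naive cells. In WT libraries, Nynrin held 1.03 and 1.39 CPM at 2 h against 2.48 and 2.57 CPM at 0 h after pretreatment, and 1.57 and 1.52 CPM at 2 h against 2.77 and 3.06 CPM at 0 h in naive cells. No KO library came near any WT library, and the log2 difference was 4.87 ± 0.055 (edgeR adjusted p = 1.5e-33). Meis1 (1.92 ± 0.034), Vldlr (1.90 ± 0.033), Lpin1 (1.58 ± 0.039), which encodes a phosphatidate phosphatase of lipid synthesis, and Rassf2 (1.55 ± 0.041) were also higher in KO. Cxcl12 was higher by 0.87 ± 0.023. Lower in KO were Kcnj2 (-1.65 ± 0.062), Medag (-1.64 ± 0.049), Snx32 (-1.58 ± 0.11), Ddit4 (-1.49 ± 0.036), Crebl2 (-1.004 ± 0.069) and Osr1 (-0.62 ± 0.039).

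By role, the stress genes were split between the genotypes, with Vldlr and Trib3 higher in KO and Ddit4, Ddit3, Sesn2 and Herpud1 lower, while Chac1 passed no test. In the Hedgehog group Gli1 (1.30 ± 0.092) and Gas1 (1.28 ± 0.037) were higher in KO and Ptch1 (-0.22 ± 0.055) lower. Dbp and Cry2 were higher, and Ciart passed no test. Of the 19 zinc finger members, 13 were higher in KO and 2 lower. Among all 391 tested genes with such symbols, 159 were higher in KO and 116 lower. Marker lists of other cell types also differed by genotype. Those of cartilage and bone summed to 271 to 502 CPM in KO and 50.7 to 97.6 CPM in WT libraries, and those of nerve and glia to 89.0 to 114.2 CPM in KO and 20.7 to 27.8 CPM in WT libraries. Their part in the differences between KO and WT was not tested.

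**Figure D4:**
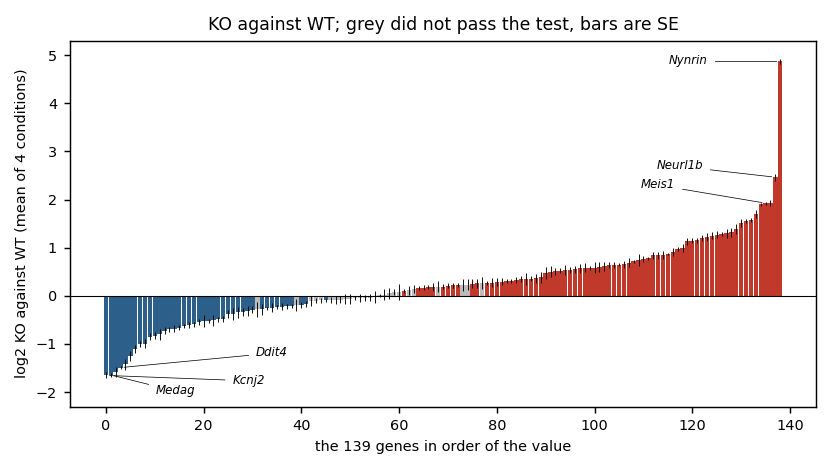
Log2 difference between KO and WT, averaged over the 4 conditions (y axis), for each of the 139 genes in order of the value (x axis), with its SE. Red genes were called higher in KO (72) and blue lower (41), and grey genes passed no test.

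Pretreatment was compared with the naive state over both times in each genotype. The values of both WT settings and of KO pretreated cells, but not of KO naive cells, had been used to choose the genes, so these counts describe the chosen genes and the lean in KO may partly follow from the choice. In KO cells 58 were lower in pretreated than in naive cells (41.7%, against 11.9% of all tested genes) and 2 higher (1.44%, against 15.3%). In WT cells 53 were lower (38.1%, against 18% of all) and 12 higher (8.63%, against 17.3%). The median log2 difference was -0.23 in KO and -0.17 in WT, and 39 genes (28.1%) were called lower in both, as were 6.79% of all tested genes. Of the genes at the floor, 13.1% were called lower in KO, 21.3% in WT and 8.37% in both. At 0 h alone, 24 h after the first dose had been washed off, the pretreated mean was below the naive mean for 121 genes in KO (87.1%, against 57% of genes at the floor) and 112 in WT cells (80.6%, against 52.1%). The median ratio of pretreated to naive at 0 h was 0.851 in KO and 0.857 in WT, where genes at the floor had 0.981 in KO and 0.994 in WT. Cartilage and bone markers summed to 409 to 502 CPM in KO pretreated and 271 to 316 CPM in KO naive libraries, and to 58.1 to 89.8 CPM in WT pretreated and 50.7 to 97.6 CPM in WT naive libraries. Their part in these differences was not tested.

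The genes with the smallest p among those lower after pretreatment in KO were Gas1 at -1.06 ± 0.049, Lpin1 at -0.70 ± 0.05, Ddit4 at -0.71 ± 0.06 and Trp53inp1 at -0.68 ± 0.049 (edgeR adjusted p = 7.6e-16, 1e-11, 2.8e-10 and 1.3e-11). In WT they were Ypel2 at -1.34 ± 0.11, Trp53inp1 at -0.80 ± 0.05, Gadd45a at -0.80 ± 0.069 and Ddit4 at -0.59 ± 0.043 (edgeR adjusted p = 1.3e-10, 2.6e-13, 1.8e-10 and 7e-12). Bmf gave -1.12 ± 0.12 in KO and -1.10 ± 0.18 in WT, and both passed the test. Higher after pretreatment in WT were Dna2, a nuclease and helicase of DNA replication (0.72 ± 0.082), Rassf7 (0.57 ± 0.11), Neurl1b (0.66 ± 0.14) and Tfap4 (0.33 ± 0.088). In KO the 2 genes called higher were Fam46b (0.26 ± 0.061), which was also higher in WT (0.21 ± 0.057), and Osr1 (0.19 ± 0.06). Osr1 did not pass without KO pretreated 2 h replicate 1, at a log2 difference of 0.14 (edgeR adjusted p = 0.15), or in DESeq2. Of the 7 stress genes, Trib3, Ddit3, Ddit4, Chac1, Herpud1 and Vldlr were called lower after pretreatment in both genotypes. This was not particular to the members. Of all 22 tested genes of the stress list, 21 were called lower in WT and 0 higher, and 16 lower in KO and 2 higher. Sesn2 was lower in WT (-0.35 ± 0.052) and passed no test in KO (-0.043 ± 0.061).

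**Figure D5:**
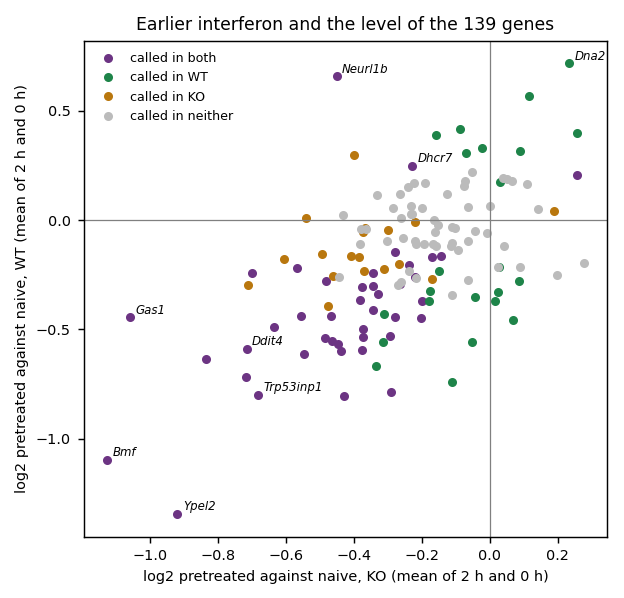
Log2 difference between pretreated and naive cells, averaged over 2 h and 0 h, in KO (x axis) and WT (y axis) for each of the 139 genes, colored by where edgeR called it. Of the 139 points, 39 were called lower in both genotypes, and Neurl1b and Dhcr7 were called in opposite directions.

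The difference between the genotypes in this comparison was tested after the data had been seen. KO naive cells alone had no part in the choice of genes, so these counts describe the chosen genes and may partly follow from that choice. This difference was lower in KO than WT for 11 of the 139 genes (7.91%, against 3.95% of tested genes and 4.85% at the floor). It was higher for 6 (4.32%, against 5.48% of tested genes and 6.93% at the floor). Without the 3 libraries lowest in Rn45s and Lars2 it was lower for 6 and higher for 2, with DESeq2 it was lower for 6, and without WT pretreated 2 h replicate 1 it was higher for 3. Neurl1b, which encodes a ubiquitin ligase of the Notch pathway, was lower after pretreatment in KO at -0.45 ± 0.083 and higher in WT at 0.66 ± 0.14, a difference of -1.11 ± 0.16 (edgeR adjusted p = 2.6e-05). Dhcr7, the last enzyme of cholesterol synthesis, gave -0.23 ± 0.074 in KO and 0.25 ± 0.089 in WT, a difference of -0.47 ± 0.12 (edgeR adjusted p = 0.0073).

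Beyond their levels, the 139 genes were compared in position and transcript features. All 139 matched RefSeq, 132 as protein-coding genes, and no pair of them were neighbors. The spans of 50 overlapped another gene, among them Bmp4, Camkk1, Cbx2, Crebl2, Fam46b, Gadd45a, Lpin1, Meis1, Rassf7, Six5, Snx32, Tet1 and Ypel2 of those named above, so that these counts are uncertain too. By the GENCODE transcript with the longest coding sequence, the median 3′ UTR of the 132 coding members was 1388 nt and that of genes at the floor 1028 nt. The pentamer ATTTA, a component of AU-rich elements that mark unstable RNAs, occurred at a median of 1.13 per kb of 3′ UTR in members and 1.33 per kb in genes at the floor. It was present at least once in 68.9% of members and 68.3% of genes at the floor. A nonamer, a longer word of this kind, was present in 22.0% of members and 16.9% of genes at the floor. These differences were not tested. In the 19 zinc finger members the median of ATTTA was 2.23 per kb, which was not compared with other zinc finger genes.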

How the data were processed

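Total RNA from the MEFs was extracted with TRIzol and made into libraries with a NuGEN Ovation kit and a HiSeq2000 read them from both ends, per the labels' protocols. The authors deposited unnormalized read counts per gene for each library. The tools they used were bcl2fastq 2.15, STAR 2.5.2b and HTSeq, on build mm9, per the submitters' processing notes. Neither annotation nor strand setting is given in the sources used here. The 5 summary lines of HTSeq were left out, with 35.1% to 41.3% of unique alignments in no gene and 0.393% to 0.496% ambiguous. The labels name no separate cultures, so p-values cover only the spread among libraries, and that may be technical. No pair of replicates agreed within sampling noise.

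CPM were scaled to the sum of counts over all genes without Rn45s and Lars2. Counts without these 2 genes were scaled by TMM, filtered with a minimum count of 10 and fitted with edgeR 4.0.16 (limma 3.58.1, R 4.3.3) in a model of 8 groups over 15 libraries. Benjamini-Hochberg adjusted p below 0.05 over all tested genes was called. The steps were tested on simulated counts. The test of KO naive 2 h against 0 h used libraries that had no part in the choice of the genes. KO against WT and pretreated against naive are other contrasts than that of the choice, but 12 of their 15 libraries also chose the genes. The change at 2 h in the 3 settings of the choice is a description, and its difference between settings was not tested.

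The genes, the lists and the comparisons were chosen with earlier results of these data known. Genes named are the 12 with the highest mean CPM, the 10 with the lowest mean ratio, the 6 with the smallest p in each direction for KO against WT and the 4 for pretreatment in each genotype, the 6 with the largest ratio in KO naive cells, the 5 on each side of the limit, and members of lists, of which a few are not reported here. Neurl1b and Dhcr7, and the members named for their role outside the lists, were chosen after their values were seen. Alternatives were RLE size factors, DESeq2 1.42.0, no filter, a fit on only the groups compared, replicate blocks, other limits and leaving out each library. Leaving out the 3 libraries lowest in Rn45s and Lars2, and the genotype difference in pretreatment, were added after seeing the data. Names, neighbors and promoters came from RefSeq GRCm38.p6, and figures were drawn with matplotlib 3.10.9.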

Additional observations from a re-analysis of the deposited data

Results flagged for a closer look

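For 2 genes the effect of pretreatment differed between the genotypes and was called in opposite directions. Neurl1b was lower after pretreatment in KO and higher in WT, with a KO-minus-WT difference of -1.11 on the log2 scale, and Dhcr7 behaved likewise with a difference of -0.47. Both differences passed edgeR's test over all tested genes, and both were picked out after their values were seen.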

How the results depend on the processing

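The count of members depends on the choice of limits. It was 30 with a ratio limit of 0.5, 474 with 0.75, 97 with a floor of 5 CPM and 90 with TMM-scaled CPM, and 134 to 144 with 1 library left out. The 90 genes under TMM scaling all belonged to the 139, and 79 of them were called lower in KO naive cells, as were 26 of the 30 at the ratio limit of 0.5. Of the 139 genes, 90 were kept whichever single library was left out. Calls in KO naive cells stayed between 109 (DESeq2) and 117 genes. With the replicate block, 115 genes were lower in KO naive cells, 72 higher and 41 lower in KO against WT, 54 lower and 3 higher after pretreatment in KO, and 53 lower and 14 higher in WT. Same-numbered libraries did not deviate together (r of -0.013 to 0.059 over 21 pairs of groups), so the numbers do not pair them. With DESeq2, 42 genes were called in either direction after pretreatment in KO, against 60 in edgeR. In WT, 56 were called with DESeq2, against 65. Leaving out a single library of the genotype compared also gave fewer calls. The genes called higher after pretreatment in KO numbered 1 with DESeq2, against 2 in edgeR. The genotype difference in pretreatment was called lower for 6 genes with DESeq2, against 11, and higher for 3, against 6, without WT pretreated 2 h replicate 1. Without the 3 libraries lowest in Rn45s and Lars2 it was 6 lower and 2 higher. Among genes not called in KO naive cells, leaving out 1 library there changed the sign of 4. Their values without 0 h replicate 1 and without 0 h replicate 2 were -0.0708 and 0.196 for 9530091C08Rik, -0.0529 and 0.186 for Zfp759, -0.22 and 0.00989 for 2810013P06Rik, and -0.287 and 0.180 for Gm5113. The cause was not tested. Of 2129 values of named genes, 2094 kept their direction and side of the threshold, 23 newly passed it, 8 no longer did and 4 changed sign. Low counts limit the genes near the floor, and no pair of KO naive libraries at 2 h shows their spread.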
